A study of Homo sapiens with 7 samples.

Results

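The treated-only regions are 296 stretches of the genome in which each of 4 ATAC-seq libraries from antimycin A and oligomycin treated neurons had a deposited peak and none of 3 vehicle libraries had one. They were chosen from the peak lists as deposited, on chromosomes 1 to 22 and X, by merging all peaks of the 7 libraries that share bases into 348205 union regions. The 296 regions are 0.085% of these. The presence and the strength of their stressed peaks are what chose them, so those values are given as a description and without a test.

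The cells were LUHMES, an established human mesencephalic line with wild-type genotype per its label, differentiated for 6 days in medium with dibutyryl cAMP, GDNF and tetracycline into cells labelled dopaminergic neurons. The 4 stressed libraries, from differentiations 6, 7, 8 and 9, received antimycin A at 25 µM and oligomycin at 10 µM for 8 hours, and the 3 vehicle libraries, from differentiations 6, 7 and 8, received DMSO. Each differentiation was a separate batch of this 1 line, per the design text. The study set out to map open chromatin in stressed and in control cells.

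ATAC-seq uses the Tn5 transposase, which inserts sequencing adapters where DNA is not covered by nucleosomes, so peaks mark promoters, enhancers and other bound or nucleosome-poor DNA. Antimycin A blocks respiratory complex III and oligomycin blocks the mitochondrial ATP synthase. Mitochondrial dysfunction of this kind is known to be relayed to the translation factor eIF2 and from there to ATF4, CHOP and ATF5, basic leucine zipper factors that bind a composite element shared by a C/EBP and an ATF site and raise genes of amino acid transport and protein quality control.

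Sequence was read for the treated-only regions that reach the promoter window of an annotated transcription start, because a start ties a region to 1 transcript. The RefSeq promoter table (GRCh38.p14, 34961 windows of 250 bases before and 50 bases after a start, with several starts for some genes) had 19 windows that share bases with 18 treated-only regions. At LINC01585 and LOC105373369 the region shares 11 and 87 bases with the window and does not cover the start. Shown here are the 3 windows that hold the ATF4 and CHOP composite element TGATGNAA, and that of CARD10, the strongest of the 18 regions that covers the outermost start of a protein-coding gene. SLC1A5 encodes the plasma membrane transporter ASCT2, which carries glutamine and other neutral amino acids, and its window (chr19:46784765-46785064, minus strand) belongs to a start inside the gene. KSR1 encodes a scaffold of the RAF and MEK kinases, and its window (chr17:27471714-27472013, plus strand) also belongs to a start inside the gene. LOC105373335 is an uncharacterised gene (chrX:129933724-129934023, minus strand). CARD10 encodes a scaffold of NF-kappaB signalling (chr22:37519366-37519665, minus strand). Each sequence runs 5′ to 3′ on the strand of the gene. Capitals mark matches, on either strand, to 5 elements: TGATGNAA, the cAMP response element TGACGTCA, the AP-1 element TGANTCA, the C/EBP element TTGCNNAA and the antioxidant response element TGACNNNGC.
SLC1A5: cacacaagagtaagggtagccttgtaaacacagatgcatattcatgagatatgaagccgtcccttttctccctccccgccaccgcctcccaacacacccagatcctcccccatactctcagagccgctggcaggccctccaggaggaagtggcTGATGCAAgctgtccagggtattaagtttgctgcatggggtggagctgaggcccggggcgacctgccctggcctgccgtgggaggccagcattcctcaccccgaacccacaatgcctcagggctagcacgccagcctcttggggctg
KSR1: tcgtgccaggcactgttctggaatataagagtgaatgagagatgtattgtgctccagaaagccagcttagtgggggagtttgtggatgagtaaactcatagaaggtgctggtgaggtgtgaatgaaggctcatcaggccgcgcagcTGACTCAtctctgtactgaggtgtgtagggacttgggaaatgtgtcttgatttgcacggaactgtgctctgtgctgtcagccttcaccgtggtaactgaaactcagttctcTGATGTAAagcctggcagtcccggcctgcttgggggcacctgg
LOC105373335: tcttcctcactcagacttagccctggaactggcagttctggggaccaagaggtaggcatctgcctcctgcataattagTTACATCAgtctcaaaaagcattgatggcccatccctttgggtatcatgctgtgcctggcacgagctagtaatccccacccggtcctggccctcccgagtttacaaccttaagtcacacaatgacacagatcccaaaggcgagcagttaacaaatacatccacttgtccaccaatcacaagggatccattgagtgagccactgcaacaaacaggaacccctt
CARD10: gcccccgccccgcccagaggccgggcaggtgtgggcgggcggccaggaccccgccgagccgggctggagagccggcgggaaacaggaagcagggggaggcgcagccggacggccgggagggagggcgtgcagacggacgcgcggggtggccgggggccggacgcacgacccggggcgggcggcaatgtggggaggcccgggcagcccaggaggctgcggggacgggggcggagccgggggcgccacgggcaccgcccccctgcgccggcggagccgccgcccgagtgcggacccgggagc

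In the SLC1A5 window the capitals mark a single TGATGCAA at chr19:46784904-46784911, 97 bases before the start. The summits of the stressed peaks lay 63, 40, 34 and 48 bp from it in stressed libraries 6, 7, 8 and 9. In KSR1 the element reads TGATGTAA and follows the start by 7 bases, and the summits lay 351 to 416 bp away. An AP-1 match (TGACTCA) stood 104 bases before that start, outside the treated-only region. In LOC105373335 the match is on the other strand (TTACATCA), and the summits lay 81 to 795 bp away. The CARD10 window held none of the 5 elements, had a GC content of 83.3% and matched the GC box GGGCGG, which SP and KLF factors bind.

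Over all 19 windows the composite element was present in 3 (15.8%), against 3.62% of all promoter windows. The AP-1 element was in 1 window (5.26% against 7.68%), C/EBP in 2 (10.5% against 10.4%), the antioxidant response element in 3 (15.8% against 13.4%) and the cAMP response element in 0 (0% against 1.85%). The GC box was in 10 (52.6% against 45.03%), the NF-Y element CCAAT in 6 (31.6% against 34.6%) and the proneural E-box CAGCTG in 4 (21.1% against 18.0%). The E-box CACGTG was in 3 (15.8% against 7.3%), the EGR element in 2 (10.5% against 5.09%) and the hypoxia response element in 2 (10.5% against 6.9%). The CTCF core (5.26% against 4.93%) and the homeodomain element TAATTA (5.26% against 4.85%) were each in 1. Elements of NRF1, TFEB, ETS, NR4A and heat shock factors were in 0, against 5.8%, 0.355%, 4.1%, 1.22% and 0.489%. These are counts of letters in 300 bases and were not tested. The antioxidant response match at LINC01585 and the C/EBP matches at LOC105373369 lay outside the treated-only regions, as did the AP-1 match at KSR1. The median GC content was 65.3% in the 19 windows and 58.7% in all windows. No treated-only region overlapped an annotated miRNA hairpin.

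The size of the set is best read beside its neighbours in the presence pattern. Of 27627 union regions with a peak in all 4 stressed libraries, 1.07% were treated-only. A further 4386 had a peak in exactly 1 vehicle library, and that library was vehicle 8 in 4332, vehicle 6 in 34 and vehicle 7 in 20. Another 6246 had a peak in 2 vehicle libraries and 16699 in all 3, that is, in all 7 libraries. The mirror pattern, a peak in all 3 vehicle and no stressed library, was found in 11 regions (0.00316% of all union regions, and 0.0554% of the 19866 regions in all vehicle libraries). It needs absence from the longest lists, stressed 6 (188516 peaks) and stressed 7 (248900), and presence in the shortest, vehicle 7 (32828). Its count therefore cannot be weighed against that of the treated-only regions. Among regions with no vehicle peak and exactly 3 stressed peaks, the missing library was stressed 8 in 1771, stressed 9 in 1482, stressed 6 in 84 and stressed 7 in 22. Most near misses of the rule therefore involve vehicle 8, whose list is the longest of the vehicle libraries, or stressed 8 and 9, whose lists are the shortest of the stressed ones.

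**Figure D1:**
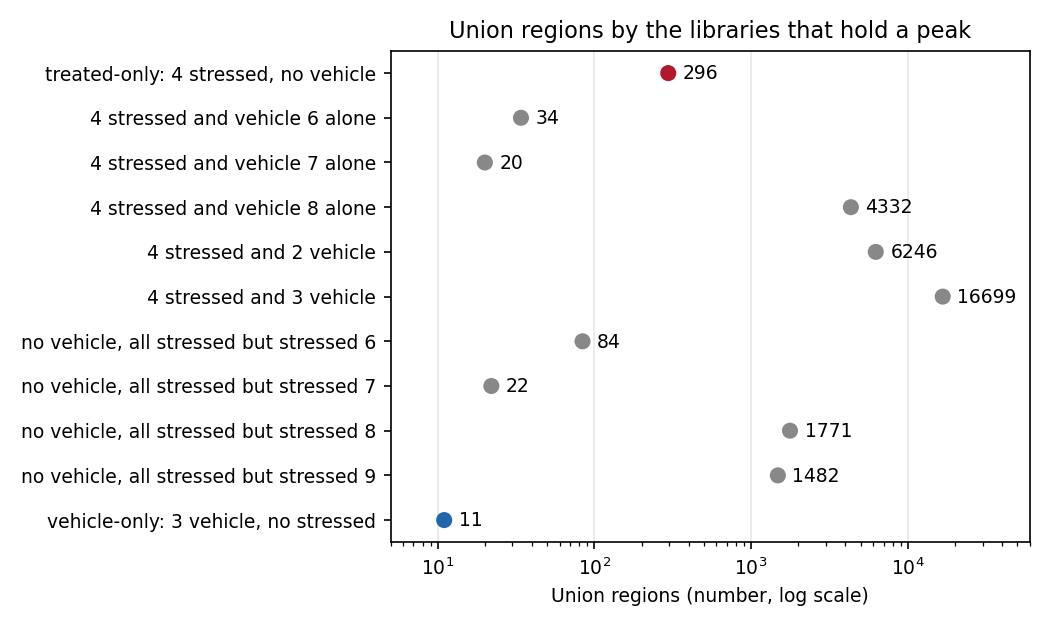
Number of union regions (log axis) by the libraries that hold a peak; each point is 1 presence pattern, with its count. The 296 treated-only regions stand below the 4332 regions that all stressed libraries share with vehicle 8 alone, and above the 11 vehicle-only regions.

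Depth and list length differed between the libraries. The lists held 188516, 248900, 55533 and 53063 peaks in stressed 6, 7, 8 and 9, and 53398, 32828 and 159902 in vehicle 6, 7 and 8. The background pileup recovered from the deposited folds, a measure of relative depth, was 2.18, 5.99, 0.816 and 1.499 in the stressed libraries and 0.492, 0.611 and 1.43 in the vehicle libraries. Length did not follow depth throughout, since stressed 9 and vehicle 8 had similar backgrounds and lists of different length. The weakest peak called in a library, here its calling floor, stood at 3.67, 2.34, 6.13 and 4.67 times background in stressed 6, 7, 8 and 9, and at 8.13, 8.18 and 4.19 times in vehicle 6, 7 and 8. A stressed peak under 8.13 times background thus had a strength at which vehicle 6 and 7 list no peak. For dopaminergic markers, 14 to 18 of 19 genes had a peak at an end per stressed library and 11 to 15 per vehicle library. SLC6A3, NR4A2 and PITX3, which encode the dopamine transporter and transcription factors of these neurons, had one in all 7. TH, the rate-limiting enzyme of dopamine synthesis, had one in 3 stressed and 0 vehicle libraries, and ALDH1A1 in 0. Progenitor and proliferation markers had end peaks for 14 to 16 of 16 genes per stressed and 8 to 16 per vehicle library. For markers of other neurons it was 10 to 12 and 8 to 12 of 13. End peaks thus did not set dopaminergic markers apart from these. Glial markers had end peaks for 6 to 13 of 16 genes per stressed and 3 to 12 per vehicle library, and mesenchymal and endothelial markers for 6 to 8 and 3 to 7 of 13. The part of all these markers in the treated-only set was not tested.

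Most treated-only regions were weak in at least 1 stressed library. Enrichment, the summit pileup divided by the background of the library, had a median over the 296 regions of 6.88 in stressed 6, 4.50 in stressed 7, 8.58 in stressed 8 and 6.01 in stressed 9. The regions present in all 7 libraries had medians of 29.8, 17.3, 17.2 and 13.3 in the same libraries. In summit pileup the treated-only regions spanned 8 to 73, 16 to 110, 5 to 17 and 7 to 26. Within 1 unit of pileup of the calling floor lay 5.41% of them in stressed 6, 0% in stressed 7, 43.6% in stressed 8 and 31.8% in stressed 9. Over all peaks of those lists the shares were 14.3%, 8.11%, 30.1% and 16.9%. So the regions sat above the floor in the long lists of stressed 6 and 7, and close to it more often than an average peak in the short lists of stressed 8 and 9. The libraries come from whole cultures, in which opening in more cells and wider opening per cell cannot be told apart.

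The lowest of the 4 stressed enrichments ranged from 2.67 to 17.02 over the regions, with a median of 4.50, and in 224 of the 296 it was that of stressed 7, the deepest library. It reached the calling floor of vehicle 8 in 167 regions, and those of vehicle 6 and of vehicle 7 in 17 regions. The other 279 regions had, in at least 1 stressed library, a peak too weak to be listed in vehicle 7. Scaled to the median enrichment of the regions present in all 7 libraries in place of the background, 21 regions reached the floor of every vehicle library.

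**Figure D2:**
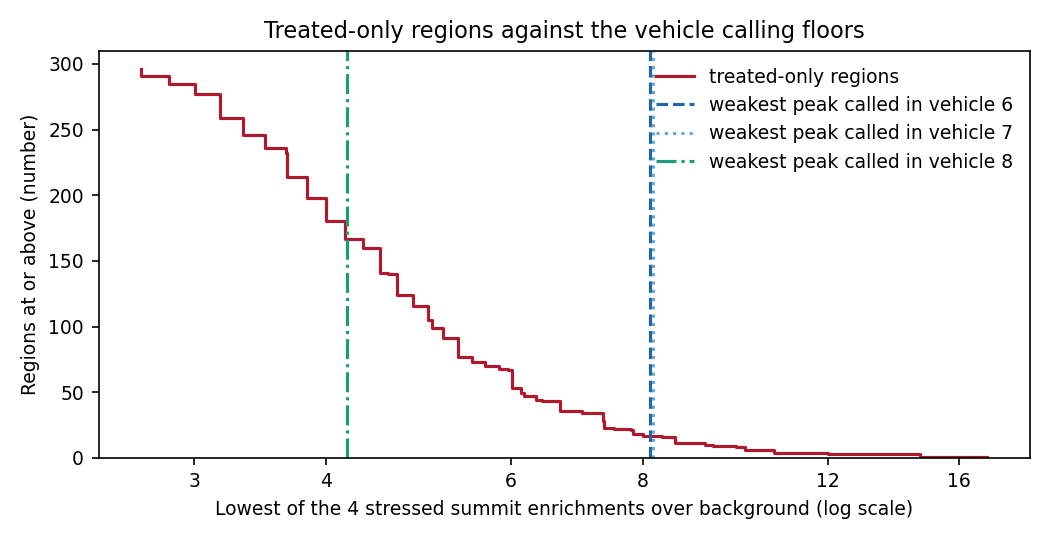
Number of treated-only regions (vertical axis) whose lowest stressed summit enrichment over background reaches the value on the horizontal log axis; vertical lines mark the weakest peak listed in each vehicle library. The curve stands at 167 at the floor of vehicle 8 and at 17 at that of vehicle 7.

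The 17 regions above every vehicle floor are described one by one, ordered by what the nearest genes encode; these genes were not tested as groups. None lay within 1000 bp of an end of a protein-coding gene, 6 lay inside a gene and 11 outside, 4 of these beyond 100 kb from any such end, and 4 were on chromosome 19. That chromosome held 7.09% of all treated-only regions, 4.73% of the regions in all stressed libraries and 2.13% of all union regions. The nearest vehicle peak was 384 to 90642 bp away. In all 17 the 4 stressed peaks had a base in common. The weakest listed peaks of vehicle 6 and 7 had summit pileups of 4 and 5. At counts this low a region of equal strength near the floor can go unlisted, which was not tested.

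Of the transporter genes near these regions, SLC1A5 was introduced with its sequence. Its region (chr19:46784119-46785660) had enrichments of 22.02, 12.01, 14.7 and 10.7 in stressed 6, 7, 8 and 9, from summit pileups of 48, 72, 12 and 16, and no vehicle peak. All 4 values lie above the highest vehicle floor of 8.18, and stressed 6 is the highest. The region covers the start inside the gene whose sequence is printed above and lies 2934 bp from the outermost start. The neighbouring region over that outermost start (chr19:46786020-46788978) was present in all 7 libraries, with enrichments of 17.4, 10.7, 13.5 and 10.0 in the stressed and 16.3, 14.7 and 12.6 in the vehicle libraries, so the groups overlapped there. SLC7A5 encodes the light chain of the LAT1 transporter, which exchanges glutamine for leucine and other large amino acids. Its region (chr16:87852304-87854708), inside the gene and 14799 bp from the start, had 18.8, 11.3, 12.3 and 9.34. Of 25 union regions within 10 kb of SLC7A5, 7 had a peak in all stressed libraries and 0 in all 7. Of those 7, 1 was treated-only, 5 also had a peak in vehicle 8 alone and 1 in 2 vehicle libraries. Vehicle 6 had a peak in 1 of the 25, vehicle 7 in 0 and vehicle 8 in 8, so at SLC7A5 the absence of vehicle peaks was shared by the neighbouring regions in vehicle 6 and 7 but not in vehicle 8.

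ATF5, which encodes a basic leucine zipper factor of the integrated and mitochondrial stress responses, had a region 3982 bp before its start, within IL4I1 and NUP62 (chr19:49923516-49924924), with 21.6, 12.2, 11.0 and 10.0. The region over the ATF5 start (chr19:49928273-49931119) was present in all 7 libraries, with 13.3, 11.3, 12.3 and 12.7 in the stressed and 18.3, 14.7 and 21.6 in the vehicle libraries. There each vehicle library lay above each stressed one before normalisation. IRF1 encodes a factor of interferon and inflammatory responses, and the region 21157 bp beyond its end (chr5:132459142-132460452) had 33.5, 15.3, 11.0 and 10.7. HIVEP1 encodes a zinc finger protein that binds enhancers of the NF-kappaB type. The region inside this gene (chr6:12044464-12045662) had 23.9, 18.3, 14.7 and 14.7, and that nearest to its relative HIVEP2 (chr6:142737485-142738235) had 12.8, 9.51, 8.58 and 11.3. The region nearest to NR3C2, the mineralocorticoid receptor gene (chr4:148842441-148844527), was 397119 bp from the gene and had 22.9, 14.7, 14.7 and 15.3.

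**Figure D3:**
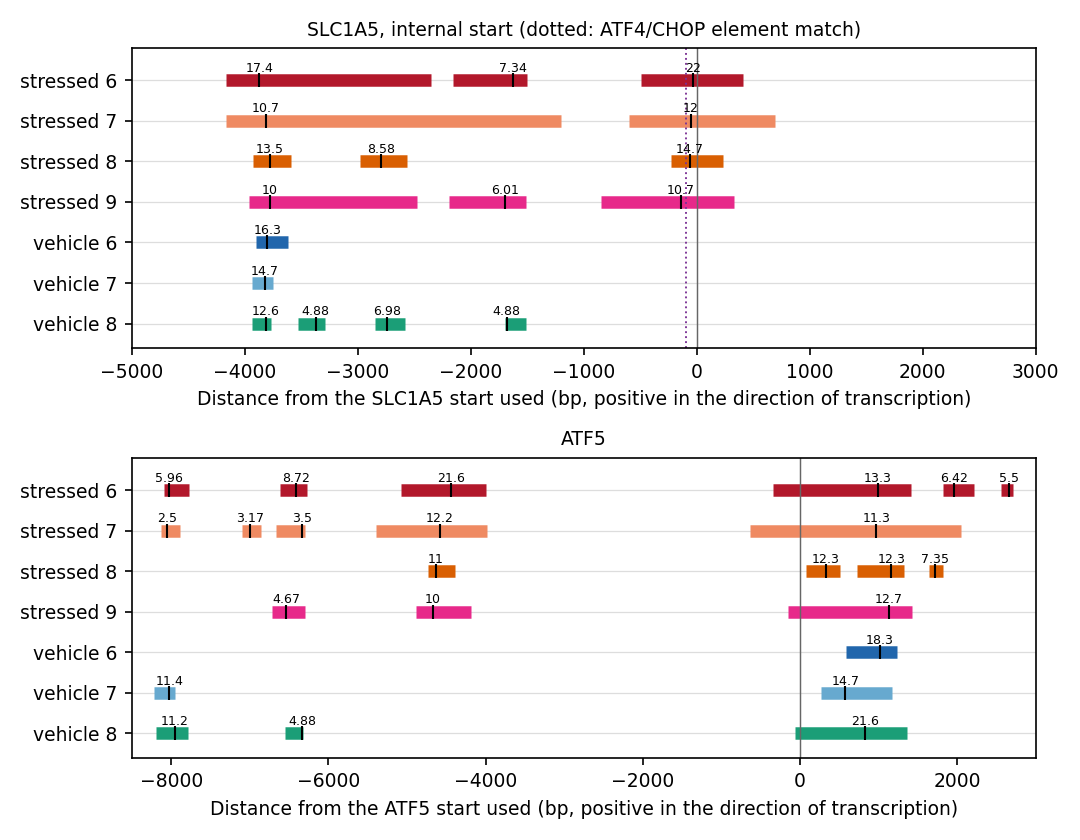
Peaks of the 7 libraries as bars around the internal start of SLC1A5 and the first ATF5 start of the promoter table, by distance in bp along the direction of transcription, with the summit as a tick and its enrichment over background as a number. Across the SLC1A5 internal start and at the treated-only region 3982 bp before the ATF5 start only the 4 stressed rows hold bars (enrichments of 10.7 to 22.02 and 10.0 to 21.6). Vehicle 7 and 8 hold bars farther upstream of ATF5, vehicle 8 holds weaker ones between the SLC1A5 starts, and all 7 rows hold bars over the outermost SLC1A5 start. All 7 rows also hold bars at or just after the ATF5 start, where those of stressed 8, vehicle 6 and vehicle 7 begin 72, 588 and 265 bp after it.

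The highest of all regions by its weakest library was the one nearest to C19orf12, a gene for a mitochondrial and endoplasmic reticulum membrane protein that is mutated in a form of neurodegeneration with brain iron accumulation. It lay 10029 bp from the gene's end (chr19:29687062-29688857) and had 22.5, 17.02, 20.8 and 17.3. Its 4 values are closer to each other than those of SLC1A5 or IRF1. Near the gene for the Rieske subunit of complex III, UQCRFS1, a region (chr19:29028550-29030264) had 11.9, 10.7, 9.81 and 10.0, but it was 175056 bp from the gene and its nearest vehicle peak, of vehicle 7, was 384 bp away. Near KCNG1, the gene of a modifier subunit of voltage-gated potassium channels, a region outside the gene had 24.3, 13.8, 14.7 and 12.01 (chr20:51033027-51035596). TRPM2, a calcium-permeable channel opened by ADP-ribose under oxidative stress, had 20.2, 9.17, 9.81 and 9.34 (chr21:44369973-44370990). CACNG3, an auxiliary subunit of AMPA receptors, had 18.8, 9.51, 8.58 and 10.0 (chr16:24257903-24258621). The remaining regions of the 17 lay nearest to PABPC4L, CCSER2, ARHGEF2, FHIT and BUB3, with lowest enrichments of 10.0, 8.34, 8.58, 8.58 and 8.58. Stressed 6 was the highest library in 16 of the 17, all but CCSER2, where it was stressed 8. Stressed 6 also had the highest median of the stressed libraries, 29.8, over the regions in all 7 libraries.

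**Figure D4:**
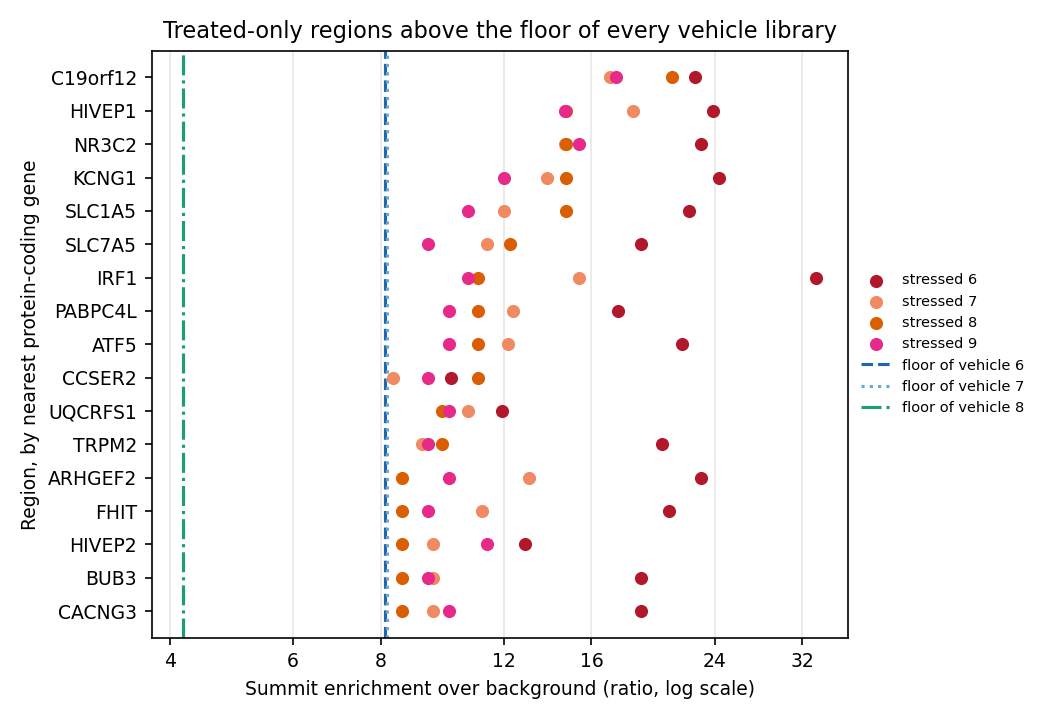
Summit enrichment over background (log axis) of the 17 treated-only regions that lie above every vehicle calling floor, 1 row per region and 1 point per stressed library, with the vehicle floors as vertical lines. The points run from 8.34 at CCSER2 to 33.5 at IRF1, all to the right of 8.18.

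Some strong regions failed that comparison through 1 library. The region inside FANCC nearest to AOPEP (chr9:95170489-95171253) had 11.0, 4.84, 11.0 and 10.7, and the region 105245 bp from CITED2, a gene for a CBP and p300 binding regulator that limits hypoxia signalling, had 8.72, 4.34, 11.0 and 9.34. In both, stressed 7 is the low library. The region nearest to MRPL14, a mitochondrial ribosomal protein gene, had 16.5, 7.51, 11.0 and 8.67.

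Regions near the 409 genes of 20 stress, metabolic and cell type lists were few. Within 100 kb, 6 of the 296 (2.03%) had a list gene as their nearest protein-coding gene, against 1.47% of all union regions, 2.60% of those in all stressed libraries and 2.71% of those in all 7. Besides SLC7A5, ATF5 and IRF1 these were BCL2, EDEM1 and HSPA9. BCL2 restrains apoptosis at the outer mitochondrial membrane, and the region inside it (chr18:63192185-63193410) had 17.9, 9.84, 8.58 and 6.67. EDEM1 acts in the degradation of misfolded proteins of the endoplasmic reticulum, and the region inside it (chr3:5201849-5203367) had 20.6, 9.68, 8.58 and 6.01. HSPA9 encodes mortalin, the HSP70 chaperone of the mitochondrial matrix, and the region 3780 bp before its start (chr5:138579181-138579660) had 9.17, 5.67, 7.35 and 5.34. Each of these 3 fell below the floor of vehicle 7 in at least 1 stressed library. The integrated stress response list counted 2 regions (SLC7A5 and ATF5), the mitochondrial stress relay list 2 (ATF5, on both lists, and HSPA9), and the lists of the unfolded protein response, p53 and apoptosis, and inflammation 1 each. For the first 2 lists these are 0.676% each of the treated-only regions, against 0.0890% and 0.0279% of all union regions and 0.203% and 0.0796% of those in all stressed libraries. For the other 3 they are 0.338% each, against 0.0603%, 0.0658% and 0.0557% of all union regions and 0.116%, 0.138% and 0.0833% of those in all stressed libraries. Counts of 1 or 2 regions are too few to read a direction from. The lists of oxidative stress, mitophagy, autophagy, mTOR and AMPK, glycolysis and hypoxia, immediate early, heat shock, mitochondrial biogenesis and Parkinson disease genes counted 0, as did all lists of neuronal, progenitor, glial, mesenchymal and endothelial markers. These lists held 0.0207% to 0.181% of all union regions each, shares at which 296 regions can hold none. With the lists as deposited, 0 of the 409 genes had a peak at an end in all stressed and no vehicle libraries. For the integrated stress response, 28 to 29 of 32 genes had an end peak per stressed library and 24 to 29 per vehicle library.

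The treated-only regions lay mostly away from gene ends, as did all union regions. Of the 296, 26 (8.78%) were within 1000 bp of an end of a protein-coding gene, 117 (39.5%) elsewhere inside a gene and 153 (51.7%) between genes. For all union regions the shares elsewhere inside a gene and between genes were similar, 41.2% and 52.5%. At gene ends were 6.36% of all union regions, 19.4% of the regions with 1 vehicle library and 53.2% of those in all 7 libraries. Among regions 744 to 1227.5 bp wide, the middle widths of the treated-only set, these shares were 10.1% for treated-only, 7.53% for all union regions, 13.3% with 1 vehicle library and 26.9% in all 7. The median width was 965 bp, against 350 bp for all union regions and 1896 bp for those in all 7. Beyond 100 kb from any protein-coding gene end were 20.3% of the treated-only regions, 37.2% of all union regions and 12.03% of those in all 7. In its shares at gene ends and beyond 100 kb, the set thus stood between the whole union and the regions shared by all libraries.

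The 26 regions at gene ends were weak: their lowest stressed enrichment ran from 3.00 to 7.34, below the floors of vehicle 6 and 7 in every case. HSD17B12, which encodes an enzyme of fatty acid elongation, had 10.1, 7.67, 7.35 and 7.34, with a peak of vehicle 6 at a distance of 133 bp. BATF3, a basic leucine zipper factor gene of immune cells, had 11.5, 8.17, 7.35 and 6.67. At CARD10, whose start sequence is printed above, the enrichments were 5.96, 5.17, 8.58 and 6.67. TMEM151A had 7.80, 5.67, 9.81 and 6.01, SHANK3, the gene of a postsynaptic scaffold, had 11.0, 4.34, 7.35 and 6.01 at its end, and SLC38A10, an amino acid transporter gene, had 5.50, 4.00, 7.35 and 6.01 at its end. Stressed 7 or stressed 9 is the lowest library in each of these. Of the 26, the regions at CARD10, TMEM151A, LOC124904770, GAREM2, PRRT1B, TLCD2, C2CD4C and NUDT14 were assigned to a start and those at C1QL2, ANAPC2, SHANK3, SLC38A10, KIR2DS4, SSTR4, CEP131, ZWINT and SLC30A3 to an end of transcription; the other 9 were not assigned. KIR2DS4 belongs to a family of near-identical neighbours, so its reads may stem from a paralog.

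A start inside a gene was also covered at GTPBP2, which encodes a GTPase of ribosome rescue and is named here after its values were seen. That region (chr6:43626987-43627922) had 17.9, 8.17, 7.35 and 6.01, and the next region (chr6:43628226-43630626), which covers another GTPBP2 start of the promoter table and the first start of MAD2L1BP on the opposite strand, had 42.2, 22.2, 23.3 and 20.02 in the stressed and 22.4, 19.6 and 32.8 in the vehicle libraries. At KSR1 the region (chr17:27471923-27472732) had 12.4, 6.01, 9.81 and 8.67, and at LOC105373335 (chrX:129933390-129935340) it had 6.88, 4.84, 7.35 and 7.34. Of the 3 regions with a composite element in their window, the SLC1A5 region alone lay above every vehicle floor.

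The stressed libraries agreed less on position within treated-only regions than within shared ones. The 4 stressed peaks had a base in common in 204 of the 296 regions (68.9%). The share was 83.7% in the regions with 1 vehicle library and 98.9% in those in all 7. At widths of 744 to 1227.5 bp the shares were 64.2%, 89.0% and 99.3%. The distance between the outermost of the 4 stressed summits had a median of 312.5 bp in treated-only regions, 255.5 bp with 1 vehicle library and 174 bp in all 7. In the other 92 regions the 4 peaks form a chain in which not all overlap, so no single position lay under a peak of all 4 libraries. Among the 50 strongest treated-only regions 48 had a common base and 31 had their summits within 200 bp, and among the 50 weakest the counts were 23 and 15. Among the 17 above every vehicle floor they were 17 and 11, with a median summit distance of 134 bp.

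**Figure D5:**
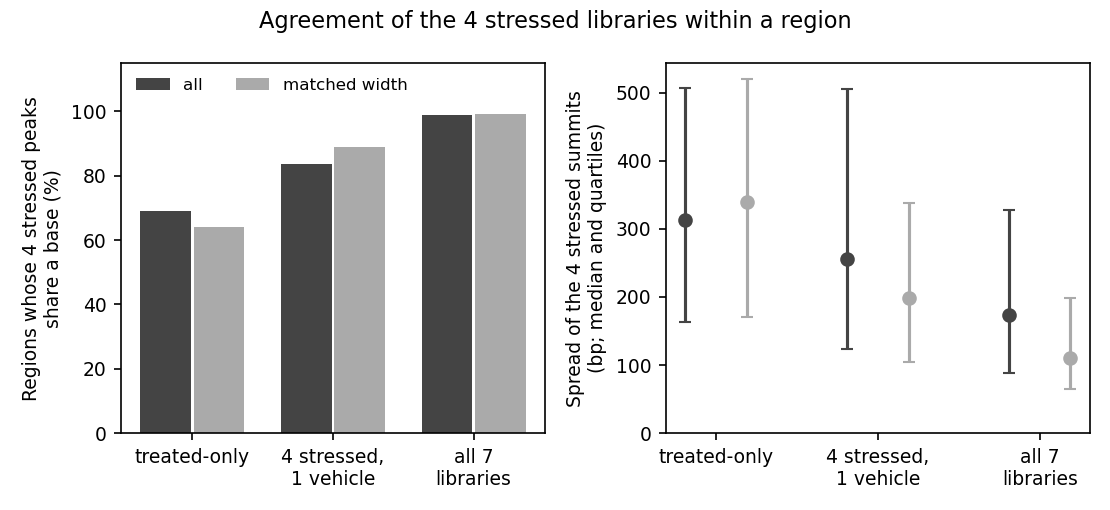
Left, share of regions (%) in which the peaks of the 4 stressed libraries share a base; right, distance in bp between the outermost of the 4 stressed summits (median, with bars for the quartiles), for 3 sets of regions and for those of matched width. The common-base share rises from 68.9% in treated-only regions to 98.9% in regions of all 7 libraries, and the median summit distance falls from 312.5 to 174 bp.

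The nearest vehicle peak lay within 200 bp of 6 treated-only regions, within 1 kb of 65, within 10 kb of 246 and within 50 kb of 292. The median distance was 2823 bp. A region present in all 7 libraries lay within 1 kb of 17, within 10 kb of 64 and within 50 kb of 169. These distances were not measured for other regions, so they do not set the treated-only regions apart. By chromosome the set was uneven. The X chromosome held 23 regions (7.77%), against 3.34% of the regions in all stressed libraries and 10.4% of all union regions, and chromosome 20 held 22 (7.43%, against 3.27% and 3.18%). The share of peaks on X was 8.33%, 10.8%, 4.39% and 5.13% in stressed 6, 7, 8 and 9 and 6.41%, 4.43% and 6.67% in the vehicle libraries, so it was highest in the 3 longest lists. None of the 17 regions above every vehicle floor was on X.

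The regions present in all 7 libraries allow a test that does not use the treated-only rule, but only where every library has a peak. Vehicle 6 and 7 list none below 8.13 and 8.18 times background, while the stressed floors were 3.67, 2.34, 6.13 and 4.67. A region below those vehicle floors could not enter the test, however strong under stress. The counts higher and lower therefore do not weigh gains against losses. The log2 enrichments of the regions in all 7 libraries, quantile normalised, were compared between 4 stressed and 3 vehicle libraries with limma, without pairing by differentiation. Of 16699 regions, 77 (0.461%) had a Benjamini-Hochberg adjusted p below 0.05, 13 higher (0.0778%) and 64 lower (0.383%) under stress, and 2321 had an unadjusted p below 0.05. With the differentiation number as a block, 0 (0%) passed by limma, with 1870 at an unadjusted p below 0.05 and a smallest adjusted p of 0.0682. For 169 treated-only regions the nearest such region within 50 kb was examined, 166 regions in all. None of the 166 passed by limma. Their median log2 difference was -0.02, against 0.02 for all 16699, and 76 of 166 (45.8%) were higher under stress, against 52.7% of all.

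At the named loci no neighbour passed the test. The SLC1A5 start region described above differed by 0.16 on the log2 scale (limma, adjusted p = 0.805), the ATF5 start region by -0.09 (limma, adjusted p = 0.891) and the neighbour of the HSPA9 region by 0.03 (limma, adjusted p = 0.968). Next to the C19orf12 region the difference was -0.05 (limma, adjusted p = 0.949), and next to that in HIVEP1 -0.67 (limma, adjusted p = 0.207). The most negative value among the neighbours of the 17 regions, -0.76, was next to the region beyond FHIT, 47171 bp away (limma, adjusted p = 0.0621). The largest positive values at these loci were 0.78 near SLC7A5, 44773 bp from the treated-only region (limma, adjusted p = 0.158), and 0.53 at the shared GTPBP2 and MAD2L1BP starts (limma, adjusted p = 0.184). This does not show that the regions are alike in both groups. Whether the treated-only regions differ from these neighbours in their response was not tested.

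At the edge of the rule the weakest members were those nearest to TSPEAR, MSN, GNAO1, EPN1 and WDR1. The last had enrichments of 3.67, 2.67, 6.13 and 6.01 and a vehicle 8 peak 331 bp away. The strongest regions that missed the rule by 1 vehicle library all had a peak of vehicle 8 and lay nearest to RPL27A, UNC5B, CDK5RAP2, NRN1 and RNF212. The region nearest to RPL27A (chr11:8657123-8659229) had summit pileups of 99, 158, 18 and 32 in the stressed libraries and 14 in vehicle 8. Its weakest stressed enrichment, 21.4, was above that of every treated-only region.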

How the data were processed

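ATAC-seq libraries of LUHMES-derived neurons were compared, 4 stressed and 3 vehicle, from 4 differentiations numbered in the titles, which also give the groups. The labels' protocols state 2 rounds of PCR with 9 cycles each. The submitters' processing notes list hg38 as the build and, with no version, FastQC, Bowtie2 and Picard. MACS2 made each library's list on its own, per the file headers. Total reads, caller settings and any Tn5 shift, which can change peak width and number, are not given in the sources used for this text.

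For each peak the deposited list holds a score, a −log10 p-value, a −log10 q-value and the summit's fold enrichment (a ratio to background), all from the authors' caller. The deposited folds equal (pileup + 1) divided by (background + 1). With a tolerance of 0.02, 100% of them gave a whole pileup in each library, and the recovered background served as relative depth. Intervals of counting error are not given, because reads are not known.

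Only chromosomes 1 to 22 and X were used, so that 29 to 54 peaks of a library fell away, and peaks sharing a base were merged. A treated-only region has a peak in 4 of 4 stressed and 0 of 3 vehicle libraries. Gene positions came from RefSeq (GRCh38.p14, 19974 protein-coding genes), with an end window of 1000 bp. Start or end of transcription was assigned only where the promoter table holds the gene. That table, and the counts of promoters and motifs, hold no window on chromosome 8. Motifs, 18 in all, were searched on both strands, and peak sequence outside the promoter windows was not analysed here. Strength was ranked by the lowest of the 4 stressed −log10 p. The rule for names takes the 20 strongest regions within 1000 bp of a gene end, the 15 strongest others, those within 100 kb of a list gene, and 5 on either side of the rule; regions on chromosome 8 and a few others that it takes are not described. GTPBP2, other regions over promoter windows, weaker regions at gene ends and further regions above every vehicle floor were named after their values were seen. The members, the gene lists and the tests were chosen with earlier results of these data known.

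Regions in all 7 libraries were compared by limma 3.58.1 (R 4.3.3) on the log2 summit enrichment, quantile normalised, with Benjamini-Hochberg adjustment. The labels give stressed and vehicle libraries of differentiations 6, 7 and 8 the same batch. An alternative fit treated these as pairs, with the differentiation number as a block. The main fit ignored the pairing, and it gave all calls and adjusted p-values for which no block is named. Deviations from the group means correlated at -0.10, -0.04 and -0.09 within pairs 6, 7 and 8. The limma fit and the overlap functions, the latter against bedtools 2.31.1, were tested on simulated data. Python 3.11.15, numpy 2.4.6, pandas 2.3.3, scipy 1.17.1 and matplotlib 3.10.9 were used. Alternatives were equal-size lists, a −log10 q of at least 5, summit windows, joined peaks, coverage of the region, equal enrichment, other gene-end windows and floors, other normalisations, and leaving out each library.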

Additional observations from a re-analysis of the deposited data

Results flagged for a closer look

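In the 4 stressed libraries, 72 sets of values (enrichment at 64 regions and 8 measures of the libraries) were examined for a single value far from the other 3. Of these, 9 had one, all at regions. Chance gives about 1 in 20 only where the libraries share a common level, and the enrichments were not scaled between libraries. Median enrichment over the regions in all 7 libraries was 29.8 in stressed 6, and 17.3, 17.2 and 13.3 in stressed 7, 8 and 9. Stressed 6 stood high in 5 of the 9. It had 22.9 near NR3C2 against 14.7 to 15.3 in the others, 20.2 in TRPM2 against 9.17 to 9.81, and 18.8 near BUB3, a spindle checkpoint gene, against 8.58 to 9.51. In CACNG3 it had 18.8 against 8.58 to 10.0, and at the HSD17B12 gene end 10.1 against 7.34 to 7.67. Stressed 7 stood low at the region nearest to AOPEP, at 4.84 against 10.7 to 11.0, and at that of UCKL1, a uridine kinase gene, at 3.17 against 8.01 to 8.58. Stressed 8 stood high at the region nearest to LINC02798, at 11.0 against 7.80 to 8.01. In MSN, the gene of the membrane linker moesin on chromosome X, it had 9.81 against 3.67 to 4.67. No explanation was tested for any of them.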

How the results depend on the processing

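The number of treated-only regions, 296, depended on list length and on single libraries. It was 488 with lists cut to the 32828 strongest peaks (23 of the 296 overlapped), 33 with a −log10 q of at least 5 (7 overlapped) and 46 at equal enrichment over background (17 overlapped). It stayed within 1.5 times of 296 with summit windows (326), peaks up to 200 bp apart joined (315), peaks covering 25% of the region (274) and a base common to the 4 stressed peaks (204). Leaving out 1 library gave 317 to 4623, with 2067 without stressed 8, 1782 without stressed 9 and 4623 without vehicle 8. The 26 regions at gene ends became 143, 3 and 5 under the first 3 settings, 60 with summit windows, 43 with an end window of 2500 bp and 14 with a common base. Without 1 library they numbered 26 to 874 (126 without stressed 8, 131 without stressed 9, 874 without vehicle 8). The 17 regions above every vehicle floor became 61 by the median of the stressed values, and 17 to 668 without 1 library (30 without stressed 7, 35 without stressed 9, 668 without vehicle 8). They were 17 with a common base and 21 on the relative scale. The common base and the relative scale were chosen after seeing the data.

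With the replicate block, a peak in stressed and none in vehicle within each of differentiations 6, 7 and 8, 1778 regions qualified, 131 of them at a gene end. This setting ignores stressed 9, and the increase is the 1482 regions that lack stressed 9 alone; pairing adds no further condition to presence and absence. The 77 calls of limma became 0 with the replicate block, 23 with median centring (20 lower), 47 of 10221 regions with a −log10 q of at least 5, and 0 to 48 without 1 library (0 without stressed 7 or stressed 9, 3 without vehicle 6, 7 without stressed 8, 12 without stressed 6, 31 without vehicle 7, 48 without vehicle 8). With the deposited fold they were 102. Differences of neighbouring regions that changed sign were those next to SLC1A5 (0.16, with -0.0918 to 0.367 without 1 library and the lowest without vehicle 8), ATF5 (-0.09, with -0.245 to 0.0667 and the highest without stressed 6), HSPA9 (0.03, with -0.101 to 0.243, below 0 without stressed 7, vehicle 6 or vehicle 8) and C19orf12 (-0.05, with 0.0548 under the replicate block and -0.202 to 0.139 without 1 library, above 0 without stressed 7, stressed 9 or vehicle 8). The causes were not tested. Vehicle 6 and 7 list no peak below 8.13 and 8.18 times background, so a weaker one could not have been seen there.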
